A study of Mus musculus with 16 samples.

Results

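The loci of 10 mouse genes for subunits of the BAF chromatin remodeling complex were followed peak by peak in chromatin accessibility data. A peak was counted to the protein-coding gene whose span lay nearest to the peak's middle, up to 50 kb away, by RefSeq's annotation of GRCm38.p6 (mm10). This gave 151 of the 82188 peaks: 9 at Smarca4, 16 at Smarca2, 10 at Arid1a, 59 at Arid1b, 2 at Smarcc1, 1 each at Smarcd2 and Smarcb1, 10 at Bcl7a, 39 at Bcl11a and 4 at Dpf1. Of these, 21 had their middle within 1 kb of an end of the gene span, 109 lay further inside the span and 21 lay outside it. The annotation used gives spans and start sites, so exons and introns are not told apart.

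BAF complexes slide and evict nucleosomes with the energy of ATP. The catalytic ATPase is BRG1 (gene Smarca4) or its paralog BRM (Smarca2), ARID1A or ARID1B is the large DNA-binding subunit of the canonical form, and SMARCC1, SMARCD2 and SMARCB1 belong to the core on which the complex is assembled. BCL7A, the zinc finger protein BCL11A and the PHD finger protein DPF1 are accessory subunits. Several of these genes are mutated in human B cell lymphomas, which arise from or pass through the germinal center, where dividing centroblasts and selected centrocytes alternate.

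Accessibility was measured with Omni-ATAC, in which a transposase cuts open chromatin and tags it for sequencing, in 16 libraries made from spleen of C57BL/6 mice aged 8 to 10 weeks. The 4 groups of 4 libraries were Smarca4+/+ CB (WT CB), Smarca4+/- CB (HET CB), Smarca4+/+ CC (WT CC) and Smarca4+/- CC (HET CC). All groups thus share strain, tissue and age, and HET libraries are labelled as lacking 1 working Smarca4 allele. The labels leave CB and CC as abbreviations, taken below to mean centroblast and centrocyte. No label names a sort gate, an immunization, the part of Smarca4 that is lost or the Cre line, if any, and none says that replicates were separate animals, so the p-values measure the spread between these libraries, which may be technical.

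Totals ran from 31696941 to 38798802 counts in WT CB and from 38716281 to 51011923 in HET CB. They ran from 3494356 to 3750936 in WT CC and from 5310327 to 7474760 in HET CC, so depth differed with genotype in CC without overlap. The median member peak held 357 counts in WT CB, 427.5 in HET CB, 26 in WT CC and 48 in HET CC. Marker loci went partly against the reading of the labels: from WT CB to WT CC 5 of 5 dark zone loci and 7 of 8 germinal center loci fell, while 1 of 5 light zone loci rose and 3 fell. Over the same step 13 of 16 T cell loci rose and 3 fell, and their summed level went from between 465.4 and 476.1 CPM (counts scaled to a common library total) to between 741.5 and 841.2 CPM. NK cell loci (4 of 8 rose, 1 fell), myeloid loci (5 of 5 rose) and naive follicular B cell loci (3 of 6 rose, 1 fell) moved with them, 5 of 8 general B cell loci fell, and no marker locus was at 0 in any library. In HET CC against WT CC, 4 of 8 germinal center loci rose, and 4 of 16 T cell and 3 of 6 naive loci fell. The part of other cell types and of depth in the differences below was not tested, and fewer cells of a type cannot be told apart in bulk libraries from less open chromatin per cell.

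The start-site windows below are shown because the peaks over them moved differently between CB and CC: those of Smarca4, Smarca2 and the outer Arid1a start rose, that of Dpf1 fell and that of Smarcc1 was not called. Each is the part of the RefSeq promoter window (GRCm38.p6) that lies outside the gene span, read 5′ to 3′ on the gene's strand. Capitals mark 4 short motifs on either strand: the GC box GGGCGG, the ETS core CCGGAAG, the NRF1 core GCATGC and the CCAAT box.
Smarca4, chr9:21615919-21616105, plus strand: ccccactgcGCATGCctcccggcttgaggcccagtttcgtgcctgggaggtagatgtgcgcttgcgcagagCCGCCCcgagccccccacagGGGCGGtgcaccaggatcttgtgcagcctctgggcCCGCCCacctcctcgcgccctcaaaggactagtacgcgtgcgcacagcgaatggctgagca
Smarca2, chr19:26604910-26605072, plus strand: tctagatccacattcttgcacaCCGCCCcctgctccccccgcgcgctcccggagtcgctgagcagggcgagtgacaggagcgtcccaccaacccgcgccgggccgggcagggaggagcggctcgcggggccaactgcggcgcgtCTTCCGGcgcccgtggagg
Arid1a, chr4:133756770-133757019, minus strand: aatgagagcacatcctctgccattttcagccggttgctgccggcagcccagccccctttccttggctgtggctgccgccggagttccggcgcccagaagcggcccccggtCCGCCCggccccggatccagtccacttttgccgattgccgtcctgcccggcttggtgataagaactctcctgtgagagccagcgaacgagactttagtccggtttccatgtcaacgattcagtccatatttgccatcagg
Smarcc1, chr9:110131774-110132023, plus strand: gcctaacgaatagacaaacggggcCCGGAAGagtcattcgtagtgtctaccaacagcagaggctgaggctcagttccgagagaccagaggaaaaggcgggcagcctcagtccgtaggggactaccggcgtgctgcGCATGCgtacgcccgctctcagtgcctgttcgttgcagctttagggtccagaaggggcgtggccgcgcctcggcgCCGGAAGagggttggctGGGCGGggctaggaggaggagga
Dpf1, chr7:29303755-29303951, plus strand: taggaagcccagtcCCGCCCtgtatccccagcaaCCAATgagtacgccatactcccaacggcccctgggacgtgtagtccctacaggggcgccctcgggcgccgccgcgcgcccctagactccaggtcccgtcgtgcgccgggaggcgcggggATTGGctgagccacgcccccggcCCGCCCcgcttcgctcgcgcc
The printed Smarca4 stretch holds 3 GC boxes and 1 GCATGC, the Smarca2 stretch 1 GC box and 1 CCGGAAG, and the Arid1a stretch 1 GC box. The Smarcc1 stretch holds 2 CCGGAAG, 1 GCATGC and 1 GC box, and the Dpf1 stretch 2 GC boxes and 2 CCAAT boxes. Among all 32817 RefSeq windows of 250 bases before a start, 32.7% hold GGGCGG, 6.9% CCGGAAG, 6.69% GCATGC and 33.8% CCAAT. Shorter than 250 bases are the printed stretches of Smarca4 (187), Smarca2 (163) and Dpf1 (197). In full, their windows hold 3 GC boxes and 2 GCATGC at Smarca4, and 2 GC boxes and 1 CCGGAAG at Smarca2. At Dpf1 the full window holds 4 GC boxes and 2 CCAAT boxes. GC content of the full 250 bases was 70.8% at Smarca4, 68.4% at Smarca2, 61.2% at Arid1a, 63.6% at Smarcc1 and 71.6% at Dpf1, against a median of 52.4% over all windows. The rising and falling windows thus shared high GC content. A match is a description of letters, not of a bound factor.

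Between CB and CC the loci changed in both directions, and falls outnumbered rises. All calls rest on edgeR's quasi-likelihood test with p-values adjusted after Benjamini and Hochberg across the whole table of peaks or of genes, and an adjusted p below 0.05 is a call. In WT, 88 of 151 peaks were called between CC and CB, 26 higher and 62 lower in CC; of all peaks 57.9% were called, 30.2% higher and 27.7% lower. The corresponding HET counts were 90 of 151, 32 higher and 58 lower in CC, against 58.8% of all peaks, 30.8% higher and 28.1% lower. The share called was thus near that of all peaks. The median log2 change of the 151 peaks was -0.263 in WT and -0.189 in HET, and that of all peaks -0.007 and 0.002. The falls lay mostly within genes: 15 of the 109 inside peaks rose and 51 fell in WT, where 27.1% of all inside peaks rose and 31.4% fell. Most of these falls came from Arid1b (54 inside peaks, 5 rose and 29 fell) and Bcl11a (24 inside peaks, 3 rose and 14 fell). Without the Arid1b peaks the median log2 change of member peaks was -0.104 in WT and -0.16 in HET. Near gene ends 6 of 21 member peaks rose and 5 fell, against 32.8% and 23.7% of all such peaks. WT and HET calls went the same way in 23 rises and 48 falls, 0 peaks were called in opposite directions, and 17 were called in WT alone and 19 in HET alone. This agreement was not counted over all peaks, so it is not shown to be particular to these loci. Of all peaks, 0.159% were called for a difference between the genotypes in the step from CB to CC.

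**Figure D1:**
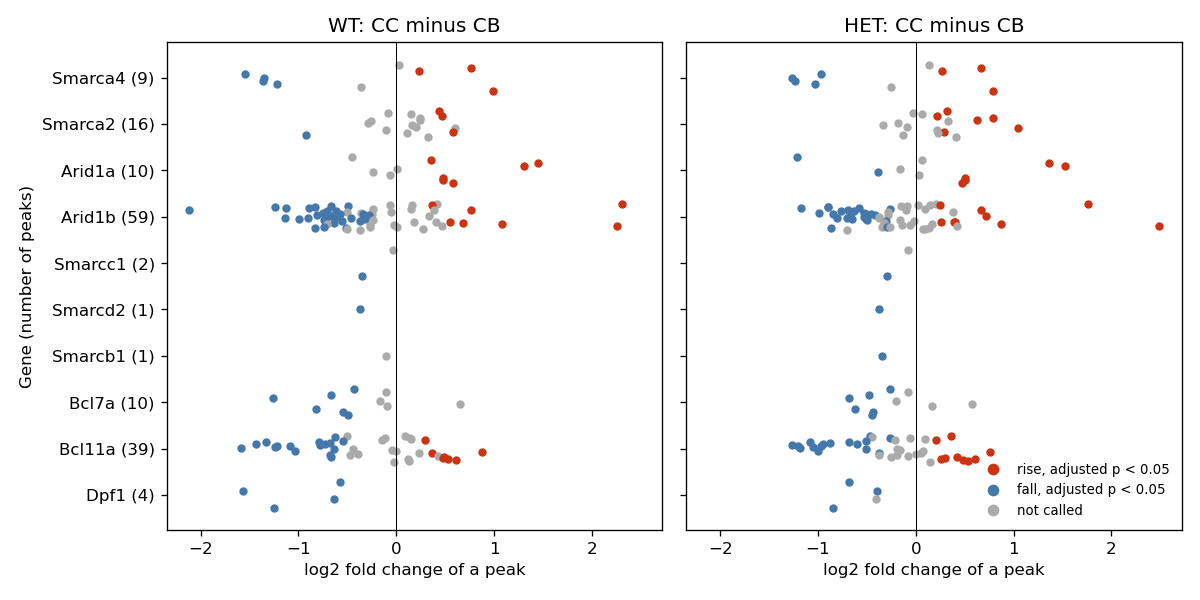
Log2 fold change of each of the 151 peaks from CB to CC (x axis) by gene (y axis, number of peaks in brackets), in WT on the left and HET on the right. Red points rose, blue points fell and grey points were not called; Bcl7a and Dpf1 have no red point in either genotype, and Smarca2 and Arid1a have mostly red among their called points.

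With the peaks of a gene summed, 9 of the 10 loci were called between WT CB and WT CC, against 63.3% of the 15075 genes with a peak, and 10 of 10 in HET, against 62.8%. Of all genes 31.6% rose and 31.7% fell in WT, and 31.1% rose and 31.7% fell in HET. Smarca2 (log2 change 0.24 in WT, 0.20 in HET) and Arid1a (0.29 and 0.24) rose. Dpf1 fell most, by 1.19 in WT and 0.67 in HET on the log2 scale. Bcl7a fell by 0.49 and 0.33, Smarcd2 by 0.43 and 0.41, Arid1b by 0.29 and 0.23, Smarca4 by 0.21 and 0.20, Smarcc1 by 0.17 and 0.17, and Bcl11a by 0.12 and 0.15. Smarcb1 fell in HET (-0.37) and stood at -0.16 (adjusted p = 0.158) in WT. The Smarcc1 calls ended without WT CB replicate 3 or WT CC replicate 2 in WT (adjusted p = 0.0519 and 0.0795), without HET CC replicate 4 in HET (0.0627) and with thinned libraries (0.118 and 0.0528), and the WT call of Smarcd2 ended without WT CC replicate 3 (-0.34, adjusted p = 0.0676). Peak sums are scaled over genes and single peaks over all peaks, so values for the same single peak differ a little between the scales.

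**Figure D2:**
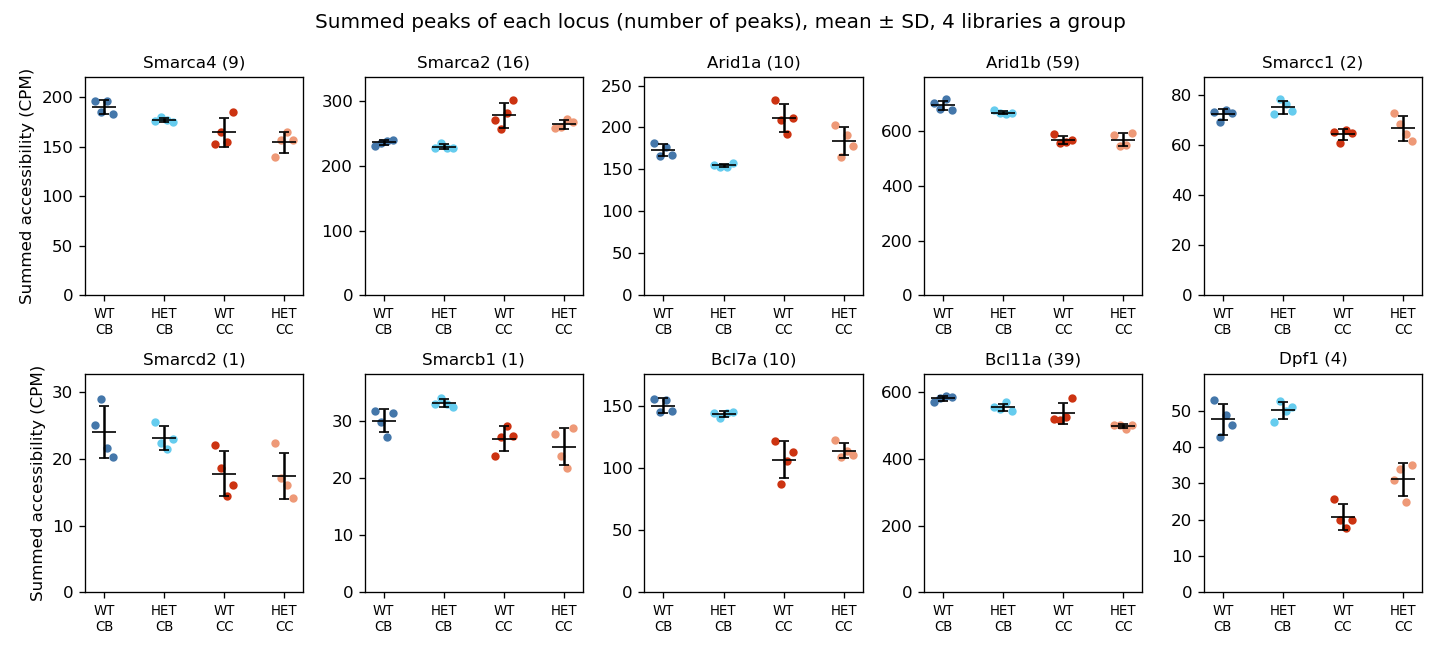
Summed accessibility of each locus in CPM (y axis) for the 4 libraries of each group (x axis), with mean ± SD in black and the number of peaks in brackets. Smarca2 and Arid1a are higher in CC than in CB, and Dpf1 falls from between 42.71 and 52.77 CPM in WT CB to between 17.62 and 25.81 CPM in WT CC.

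Smarca4 encodes BRG1, the ATPase whose gene is heterozygous here, and spans chr9:21616106-21704230 on the plus strand. Its 9 peaks split between CB and CC by position. The peak over the start (chr9:21615760-21616260, middle 0.2 kb upstream) measured 42.1, 39.4, 42.0 and 39.2 CPM in WT CB and 63.1, 71.5, 69.1 and 72.5 CPM in WT CC. HET CB libraries gave 37.5, 37.1, 35.8 and 34.8 CPM, and HET CC libraries 54.7, 52.0, 70.4 and 55.1 CPM. Every CC library was above every CB library. The log2 rise was 0.76 (SE 0.0758, adjusted p = 9.93e-13) in WT and 0.67 (SE 0.0699, adjusted p = 4.53e-12) in HET, or 1.70-fold and 1.59-fold.

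A run of 4 peaks inside Smarca4, 7.4 to 11.4 kb downstream of the start, went the other way. At the strongest, 9.4 kb downstream (chr9:21625279-21625779), WT CB libraries had 43.0, 41.2, 44.6 and 39.5 CPM and WT CC libraries 18.3, 15.01, 10.7 and 21.9 CPM. The values were 41.8, 42.7, 41.5 and 41.6 CPM in HET CB and 14.3, 23.6, 12.7 and 17.5 CPM in HET CC. The groups were far apart in both genotypes: the peak was about as high as the start peak in CB and well below it in CC. It fell by 1.35 (SE 0.125, adjusted p = 1.03e-13) in WT and by 1.26 (SE 0.104, adjusted p = 1.84e-15) in HET on the log2 scale. Its neighbors fell by 1.55, 1.36 and 1.22 in WT and by 0.97, 1.23 and 1.03 in HET.

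Elsewhere at Smarca4, the peak 0.4 kb downstream rose by 0.23 in WT and 0.27 in HET, and a weak peak 36.2 kb downstream rose by 0.99 and 0.79. The remaining peaks, 6.1 kb upstream and 14.6 kb downstream, were not called (0.03 and -0.36 in WT). The summed locus adds the gains at the start to the losses inside the gene. The log2 ratio of the 2 peaks near the gene end to the 6 inside the gene went from 1.131 ± 0.053 (SD, n = 4) in WT CB to 2.864 ± 0.175 in WT CC, and from 1.021 ± 0.059 in HET CB to 2.623 ± 0.406 in HET CC. This ratio was chosen after values had been seen and is given as a description. It was not computed for genes outside the members. Over all peaks the median log2 change from WT CB to WT CC was 0.031 near gene ends and -0.094 inside genes. The direction of the ratio is thus not particular to these loci. The ratio was also higher in every CC than in every CB library at Arid1b (by 0.486 in WT and 0.457 in HET on average) and Bcl11a (by 0.397 and 0.285), and in WT at Arid1a (by 0.18). At Smarca2 it was 1.643 ± 0.023 in WT CB and 1.681 ± 0.213 in WT CC, which overlapped, and CB and CC overlapped at Bcl7a and Dpf1 too.

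**Figure D3:**
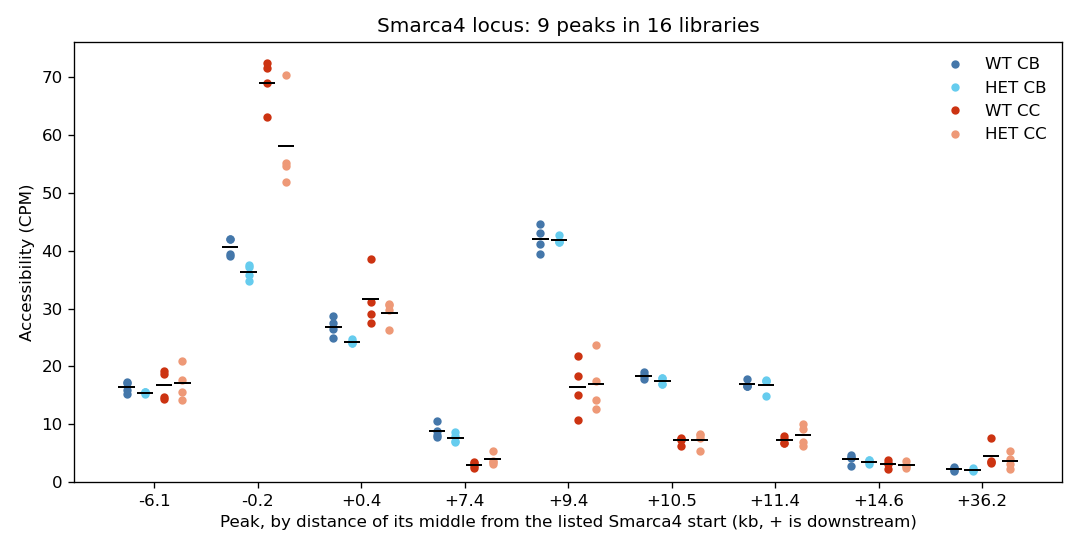
Accessibility in CPM (y axis) at the 9 Smarca4 peaks, ordered by distance from the start (x axis), in each of 16 libraries, with black lines at group means. The start peak at 0.2 kb upstream is higher in CC and the 4 peaks from 7.4 to 11.4 kb downstream are lower in CC, in both genotypes.

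Among genes above the median level, those whose summed loci followed the Smarca4 locus most closely over the 16 libraries were Hipk2 (Pearson r 0.936), Ggta1 (0.916) and Phldb3 (0.913), out of 7530 compared. The libraries fall into CB and CC clusters that differ in depth, so the r values mainly compare these clusters and carry no test.

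Smarca2 encodes BRM, the alternative ATPase, and spans chr19:26605073-26778321 on the plus strand. It had 3 peaks that rose in both genotypes and 0 that fell in both. Its start peak (chr19:26604720-26605220) measured 49.3, 50.6, 51.9 and 55.1 CPM in WT CB against 59.5, 71.0, 63.4 and 86.7 CPM in WT CC, and 52.8, 59.2, 53.5 and 53.8 CPM in HET CB against 67.4, 72.3, 71.9 and 62.2 CPM in HET CC. All CC values exceeded all CB values of the same genotype. The log2 rise was 0.44 (SE 0.0766, adjusted p = 1.89e-06) in WT and 0.32 (SE 0.0685, adjusted p = 6.28e-05) in HET.

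A second strong Smarca2 peak lay 143.0 kb downstream of the start (chr19:26747908-26748408), with 27.4, 26.9, 26.4 and 27.7 CPM in WT CB and 37.0, 37.1, 37.5 and 50.6 CPM in WT CC. It rose by 0.58 (SE 0.0982, adjusted p = 9.53e-07) in WT and, from between 24.96 and 27.16 CPM to between 27.47 and 41.53 CPM, by 0.29 (SE 0.0895, adjusted p = 0.00461) in HET. Peaks 39.0, 41.1 and 126.8 kb downstream rose in HET (0.79, 0.62 and 1.04), with WT values of 0.25, 0.24 and 0.60 that were not called. A weak peak 149.5 kb downstream fell in WT (-0.92, SE 0.322, adjusted p = 0.0123) and had -0.13 in HET. That WT call ended without WT CC replicate 3 or 4, with log2 values from -1.21 to -0.70 over the 8 single omissions and an adjusted p of up to 0.0798, and with libraries thinned to the smallest total (-0.61, adjusted p = 0.237).

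Arid1a encodes the ARID subunit of canonical BAF and spans chr4:133679008-133756769 on the minus strand, with 2 listed starts. The peak over the outer start rose from CB to CC, while the peak over the inner start (chr4:133753503-133754003) was not called, at -0.06 (adjusted p = 0.766) in WT and 0.04 (adjusted p = 0.838) in HET. The outer start peak (chr4:133756603-133757103) measured 30.1, 25.4, 29.0 and 29.6 CPM in WT CB and 39.2, 40.6, 35.0 and 43.8 CPM in WT CC. HET CB libraries had 25.0, 24.8, 26.7 and 22.7 CPM and HET CC libraries 36.5, 30.9, 41.7 and 33.1 CPM, and CB and CC did not overlap in either genotype. The log2 rise was 0.47 (SE 0.0947, adjusted p = 2.19e-05) in WT and 0.51 (SE 0.085, adjusted p = 9.01e-07) in HET. The peaks 0.6 kb upstream of that start and 0.4 kb upstream of the inner start rose by 0.58 and 0.48 in WT and by 0.47 and 0.50 in HET.

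Steeper rises came from weak peaks inside Arid1a. The one 24.3 kb downstream of the nearest start (chr4:133729440-133729940) went from 4.62, 3.61, 3.61 and 3.88 CPM in WT CB to 13.6, 7.66, 11.8 and 9.85 CPM in WT CC, and from between 2.991 and 4.356 CPM in HET CB to between 8.306 and 9.499 CPM in HET CC. It rose by 1.45 (SE 0.193, adjusted p = 4.21e-09) in WT and 1.36 (SE 0.174, adjusted p = 1.58e-09) in HET. Another, 10.7 kb downstream, rose by 1.31 in WT and 1.53 in HET, with 5 to 12 counts a library in WT CC. In HET the peak near the 3′ end of the gene (chr4:133679597-133680097) fell by 1.22 (SE 0.233, adjusted p = 1.08e-05), with 4.69, 4.91, 5.43 and 5.58 CPM in CB and 1.72, 3.30, 1.70 and 1.86 CPM in CC. In WT the same peak had -0.45 (adjusted p = 0.106), and the difference between genotypes was not called (-0.76, adjusted p = 0.396).

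Arid1b encodes the alternative ARID subunit, spans chr17:4994297-5347656 on the plus strand and held 59 of the 151 peaks. Most called peaks fell: 20 fell and 6 rose in both genotypes, 10 were called in WT alone and 7 in HET alone. Its start peak (chr17:4994680-4995180) was not called, at -0.06 (adjusted p = 0.642) in WT and 0.14 (adjusted p = 0.156) in HET. With only peaks of a mean of at least 5 CPM kept, the HET value became a call (0.24, adjusted p = 0.0152). Peaks 1.7 and 2.4 kb downstream fell in WT (-0.49 and -0.67, adjusted p = 0.00483 and 1.59e-05) and had -0.09 and -0.15 in HET (adjusted p = 0.546 and 0.21). From 5.0 to 11.4 kb downstream, 4 adjacent peaks fell in both genotypes. Of these the peak 6.1 kb downstream (chr17:5000969-5001469) had 16.2, 14.8, 18.2 and 15.97 CPM in WT CB and 7.23, 4.12, 7.05 and 9.03 CPM in WT CC, a fall of 1.24 (SE 0.169, adjusted p = 7.25e-09). In HET it went from 15.9, 14.9, 15.9 and 14.9 CPM to 6.54, 7.65, 8.31 and 10.6 CPM, a fall of 0.89 (SE 0.135, adjusted p = 8.8e-08).

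Far downstream, 308.4 kb from the start (chr17:5303250-5303750), a strong Arid1b peak fell by 0.82 (SE 0.119, adjusted p = 3.48e-08) in WT and by 0.87 (SE 0.1, adjusted p = 9.07e-11) in HET. Its levels were 26.4, 24.4, 28.4 and 25.5 CPM in WT CB, 25.8, 28.2, 26.5 and 27.5 CPM in HET CB, 14.2, 15.6, 13.5 and 15.9 CPM in WT CC and 12.04, 14.3, 14.9 and 17.9 CPM in HET CC. No CC library reached the lowest CB library. The steepest rises were at peaks nearly closed in CB. One 254.1 kb downstream (chr17:5248877-5249377) had 0.48, 1.22, 0.66 and 0.67 CPM in WT CB and 3.61, 4.12, 3.95 and 2.74 CPM in WT CC, where it rested on 10 to 14 counts a library. It rose by 2.26 (SE 0.37, adjusted p = 5.7e-07) in WT and, from between 0.4854 and 0.7001 CPM to between 2.111 and 5.122 CPM, by 2.49 (SE 0.334, adjusted p = 5.14e-09) in HET.

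Smarcc1, Smarcd2 and Smarcb1 encode core subunits and had 4 peaks in all. Smarcc1 (chr9:110132024-110240178, plus strand) had a start peak of 48.0, 47.8, 48.2 and 50.1 CPM in WT CB and 50.02, 45.0, 48.8 and 46.2 CPM in WT CC. HET libraries had 49.3, 52.2, 52.5 and 48.4 CPM in CB and 52.3, 49.6, 44.0 and 44.7 CPM in CC, so all 4 groups overlapped. The log2 difference was -0.03 (SE 0.0748, adjusted p = 0.756) in WT and -0.08 (SE 0.0655, adjusted p = 0.272) in HET. The second Smarcc1 peak, 0.4 kb downstream, fell by 0.35 (SE 0.13, adjusted p = 0.0187) in WT and by 0.30 (SE 0.107, adjusted p = 0.0139) in HET. These calls ended without WT CB replicate 3 or WT CC replicate 1 in WT (adjusted p up to 0.0782) and without HET CC replicate 4 in HET (0.0815), and in both genotypes with libraries thinned to the smallest total (0.105 in WT, 0.0857 in HET) and with peaks of at least 5 CPM alone (0.0812 and 0.0973).

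The single Smarcd2 peak lay 0.5 kb from the 5′ end of the span (chr11:106263171-106272998, minus strand) and 4.8 kb upstream of the listed start. It measured 23.3, 27.0, 20.0 and 18.9 CPM in WT CB and 21.4, 18.3, 13.8 and 15.6 CPM in WT CC, so the groups overlapped, and it fell by 0.37 (SE 0.138, adjusted p = 0.0198). In HET it went from 23.8, 21.1, 20.2 and 21.5 CPM to 21.5, 16.4, 15.5 and 13.5 CPM, a fall of 0.38 (SE 0.118, adjusted p = 0.00515). The WT call ended without WT CB replicate 2 or WT CC replicate 3 or 4, with log2 values from -0.48 to -0.27 and an adjusted p of up to 0.127, and with peaks of at least 5 CPM alone (0.0902); the HET call ended with thinned libraries (0.0721). Smarcb1 (chr10:75896769-75921614, minus strand), whose product is lost in rhabdoid tumors, had 1 peak near its start. That peak went from 30.6, 31.9, 30.9 and 30.3 CPM in HET CB to 26.5, 22.6, 21.0 and 27.3 CPM in HET CC, a fall of 0.34 (SE 0.0866, adjusted p = 0.000556). In WT the levels were 29.5, 27.7, 25.2 and 29.2 CPM against 23.1, 26.5, 27.9 and 26.3 CPM, which overlapped (-0.10, adjusted p = 0.388), and the difference between genotypes was not called (-0.24, adjusted p = 0.504).

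Bcl7a encodes an accessory subunit that is recurrently mutated in B cell lymphoma and spans chr5:123344448-123374083. Of its 10 peaks 6 fell in both genotypes and 0 rose in either. The steepest fall was 2.1 kb inside the gene (chr5:123346264-123346764), from 20.0, 17.9, 17.3 and 18.8 CPM in WT CB to 11.4, 4.71, 6.77 and 7.94 CPM in WT CC and from 18.5, 16.1, 16.6 and 17.4 CPM in HET CB to 10.5, 10.0, 12.8 and 9.62 CPM in HET CC. The falls were 1.26 (SE 0.16, adjusted p = 1.39e-09) and 0.68 (SE 0.124, adjusted p = 4.46e-06) on the log2 scale. Their difference was not called (0.57, adjusted p = 0.255). The peak over the end of the span (chr5:123344213-123344713) was the strongest of the locus in CB and was not called, at -0.10 (adjusted p = 0.385) in WT and -0.08 (adjusted p = 0.434) in HET. Of 4 peaks outside the span, 3.6 to 7.9 kb from it, 3 fell, by 0.49 to 0.82 in WT and by 0.44 to 0.62 in HET.

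Bcl11a encodes a zinc finger transcription factor needed for B cell development that also purifies with BAF, and spans chr11:24076564-24173558 on the plus strand. Its 39 peaks formed blocks. All 11 successive peaks from 1.3 to 41.0 kb downstream of the listed start fell in both genotypes, by 0.54 to 1.58 in WT and by 0.51 to 1.27 in HET. The steepest WT fall was 41.0 kb downstream (chr11:24121437-24121937), where 9.49, 9.85, 7.93 and 9.93 CPM in WT CB became 3.89, 2.94, 2.82 and 2.74 CPM in WT CC, a fall of 1.58 (SE 0.23, adjusted p = 4.12e-08). In HET 8.47, 8.78, 9.18 and 8.48 CPM became 2.24, 5.01, 2.83 and 4.81 CPM, a fall of 1.18 (SE 0.18, adjusted p = 1.07e-07). No CC library overlapped the CB libraries. The steepest HET fall, 35.5 kb downstream (chr11:24115977-24116477), was 1.27 (SE 0.175, adjusted p = 1.15e-08), with 0.78 (SE 0.192, adjusted p = 0.000444) in WT.

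Rises called in both genotypes at Bcl11a lay at the start, at 1 site further inside the gene and beyond its 3′ end. That site, 60.5 kb downstream (chr11:24140945-24141445), had 7.11, 7.18, 7.26 and 7.51 CPM in WT CB and 13.3, 13.8, 13.0 and 13.1 CPM in WT CC, with little spread in either. It rose by 0.87 (SE 0.15, adjusted p = 1.52e-06) in WT and, from between 6.466 and 8.164 CPM to between 11.61 and 12.27 CPM, by 0.76 (SE 0.131, adjusted p = 1.72e-06) in HET. Its neighbor 61.1 kb downstream rose in WT (0.37, adjusted p = 0.000758) and had 0.05 (adjusted p = 0.625) in HET. Beyond the 3′ end, peaks 11.5, 26.2, 26.9 and 28.7 kb past the span rose in both genotypes, by 0.48 to 0.61 in WT and by 0.26 to 0.48 in HET. The start peak (chr11:24080418-24080918) rose by 0.30 (SE 0.103, adjusted p = 0.0114) in WT and by 0.21 (SE 0.0921, adjusted p = 0.0436) in HET. Its WT call ended without WT CC replicate 3 (0.19, adjusted p = 0.154). The HET call ended in 6 of 8 single omissions, all but those of HET CB replicate 1 and HET CC replicate 4 (adjusted p up to 0.217), with the replicate number as a block (0.0676) and with thinned libraries (0.0838).

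**Figure D4:**
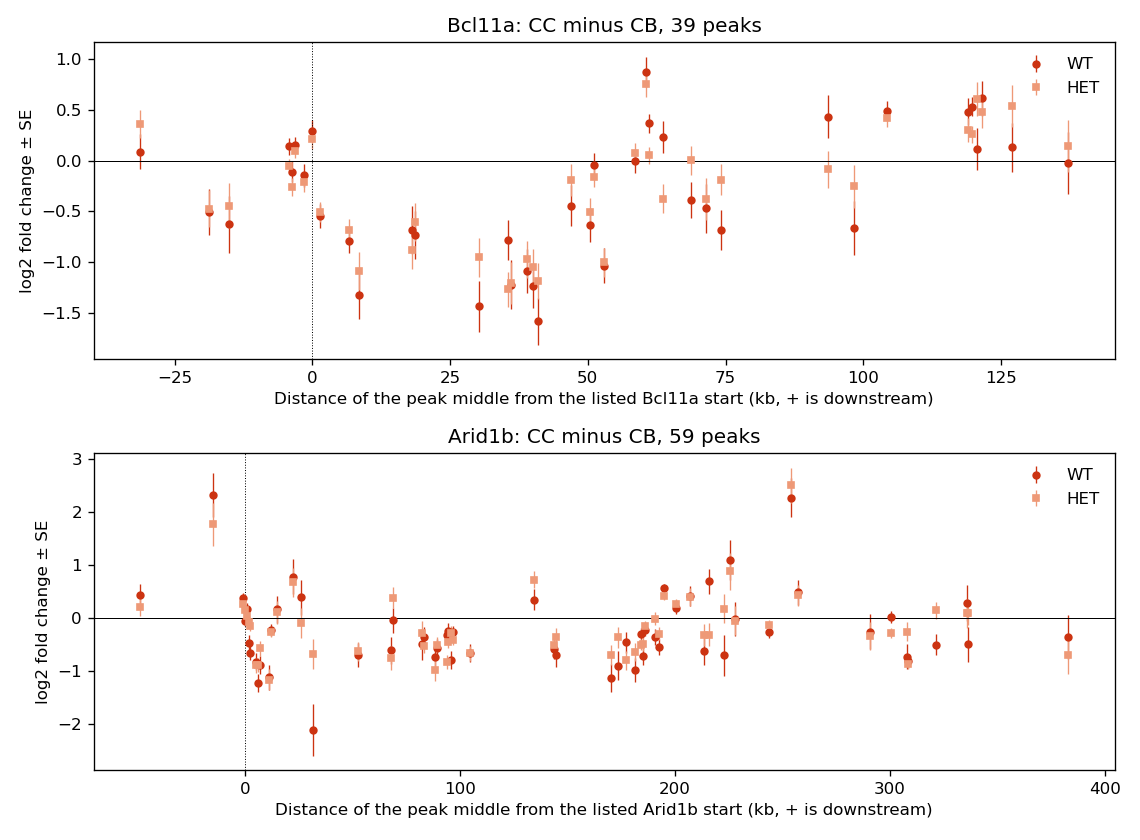
Log2 fold change from CB to CC ± SE (y axis) against distance from the listed start in kb (x axis) for the 39 Bcl11a peaks (top) and the 59 Arid1b peaks (bottom), in WT (circles) and HET (squares). The 11 Bcl11a peaks from 1.3 to 41.0 kb downstream lie below 0 in both genotypes, and most Arid1b peaks lie below 0.

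Dpf1 encodes a PHD finger subunit best known from neuronal BAF and spans chr7:29303952-29317592 on the plus strand. It showed the steepest summed fall of the 10 loci, and 3 of its 4 peaks fell in both genotypes. The strongest, 3.9 kb downstream (chr7:29307676-29308176), went from 22.8, 18.6, 21.9 and 19.5 CPM in WT CB to 7.50, 7.36, 9.30 and 10.7 CPM in WT CC and from 21.1, 24.0, 24.4 and 23.9 CPM in HET CB to 15.3, 11.7, 10.8 and 14.1 CPM in HET CC. CB and CC were apart in both genotypes, with falls of 1.25 (SE 0.149, adjusted p = 2.46e-10) and 0.85 (SE 0.112, adjusted p = 3.61e-09). The start peak (chr7:29303595-29304095) fell by 1.57 (SE 0.227, adjusted p = 3.86e-08) in WT, from -2.26 without WT CC replicate 1 to -1.27 without WT CC replicate 3, and by 0.40 (SE 0.156, adjusted p = 0.0249) in HET. The HET call of the start peak ended without HET CB replicate 2 or HET CC replicate 1 or 3 (adjusted p up to 0.128), with peaks of at least 5 CPM alone (0.0999) and with thinned libraries (0.25).

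The comparison of HET with WT asks whether the loss of 1 Smarca4 allele goes with other accessibility at the genes of its own complex. At Smarca4 itself, the 9 peaks of HET CB lay 0.01 to 0.20 below WT CB on the log2 scale, and no peak was called. The start peak differed by -0.17 (SE 0.0599, adjusted p = 0.365) in CB and by -0.26 (SE 0.0823, adjusted p = 0.0752) in CC; the CC value became a call without HET CC replicate 3, its highest HET library (-0.36, adjusted p = 0.00753), and with DESeq2 (adjusted p = 0.0247). The CB libraries of this peak did not overlap, with 34.8 to 37.5 CPM in HET and 39.2 to 42.1 CPM in WT. The summed Smarca4 locus differed by -0.10 in CB (SE 0.0446, adjusted p = 0.413) and by -0.09 in CC (SE 0.0581, adjusted p = 0.375). No peak showed the halving that loss of 1 copy of its sequence would give, and since the labels do not place the lost part, this does not check the genotype.

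In CB, 0 of the 151 peaks and 0 of the 10 loci were called between HET and WT by edgeR, against 0.129% of all peaks and 0.551% of all genes. An unadjusted p below 0.05 was found for 12 peaks and 4 loci, and DESeq2 also called 0 of each. Unadjusted p-values below 0.05 were not counted over the whole table, here or below, so such counts have no share to be set against. HET was below WT at 105 of 151 peaks (median log2 difference -0.053), and at 53.4% of all peaks (median -0.01). The smallest p among loci was at Arid1a, where 181.5, 166.4, 177.1 and 167.8 CPM in WT CB stood against 155.7, 152.9, 153.4 and 157.6 CPM in HET CB. These libraries did not overlap, at a log2 difference of -0.16 (SE 0.0472, adjusted p = 0.131), which passed with the CB libraries fitted alone (adjusted p = 0.00988). The smallest p of a Smarca2 peak was 41.1 kb downstream of its start (-0.37, SE 0.105, adjusted p = 0.163), and this peak too passed with CB fitted alone (0.0256). With CB fitted alone, calls rose over the whole table, to 1076 of 82072 peaks and 482 of 15067 genes.

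In CC, 2 of the 151 peaks were called between HET and WT, 1 higher and 1 lower in HET, against 2.06% of all peaks (1.08% higher, 0.979% lower), and 2 of 10 loci, against 6.66% of all genes (3.24% higher, 3.42% lower). The called loci were Dpf1, higher in HET, and Arid1a, lower in HET. The summed Dpf1 locus had 25.8, 19.9, 17.6 and 19.9 CPM in WT CC and 30.8, 33.9, 24.9 and 34.9 CPM in HET CC, which overlapped at 1 library of each group. It was 0.59 higher in HET (SE 0.129, adjusted p = 0.00542), and stayed called in all 8 single omissions, from 0.52 to 0.72. In CB the Dpf1 locus differed by 0.07 (SE 0.0686, adjusted p = 0.793), and the difference between the CC and CB effects was 0.52 (SE 0.147, adjusted p = 0.0959).

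The called Dpf1 peak was the one over its start, with 9.17, 4.42, 1.41 and 2.19 CPM in WT CC, from 33, 15, 5 and 8 counts, and 7.22, 10.6, 7.55 and 11.95 CPM in HET CC, from 42, 80, 40 and 77 counts. WT CC replicate 1 lay within the HET range and the other 3 WT libraries below it. The difference was 1.14 (SE 0.264, adjusted p = 0.0149). It ended as a call without WT CC replicate 3 or 4 or HET CC replicate 2 or 4 (adjusted p up to 0.0743) and with the CC libraries fitted alone (0.0723), and it grew to 1.84 without WT CC replicate 1. The peak 3.9 kb downstream was higher in HET by 0.57 without passing the test (SE 0.179, adjusted p = 0.0715), although its 4 HET CC libraries were all above the 4 WT CC libraries.

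Arid1a had 232.3, 209.2, 192.3 and 211.9 CPM in WT CC and 202.9, 164.5, 190.7 and 177.5 CPM in HET CC, which overlapped. Its summed locus was lower in HET by 0.21 on the log2 scale (-0.21, SE 0.0585, adjusted p = 0.0285). In CC, 9 of its 10 peaks were below 0 and 0 were called alone by edgeR; 2 had an unadjusted p below 0.05, and the smallest p was 46.9 kb downstream of the nearest start (-0.40, SE 0.127, adjusted p = 0.078). That peak became a call with DESeq2 (-0.41, adjusted p = 0.0159) and without HET CC replicate 1 (-0.47, adjusted p = 0.0358). The locus call ended without WT CC replicate 1, 2 or 4 or HET CC replicate 2 or 4 (from -0.26 to -0.15, adjusted p up to 0.15), with thinned libraries (0.0572) and with the CC libraries fitted alone (0.104).

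**Figure D5:**
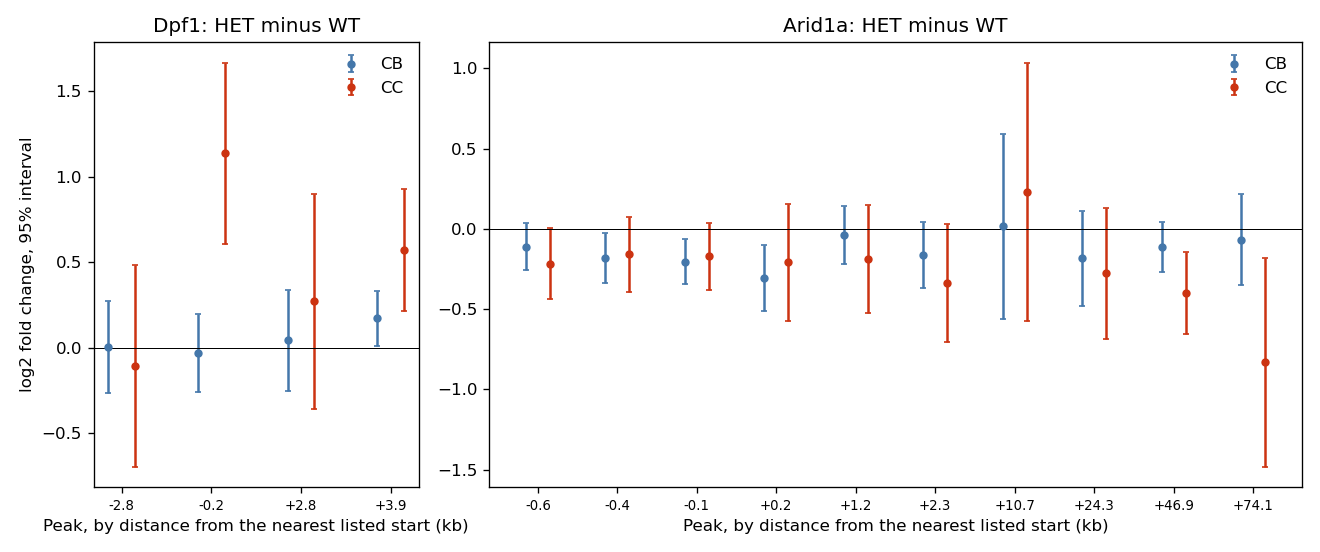
Log2 fold change of HET against WT with its 95% interval (y axis) at the 4 Dpf1 peaks (left) and 10 Arid1a peaks (right), ordered by distance from the nearest start (x axis), in CB (blue) and CC (red). The Dpf1 start peak stands at 1.14 in CC and -0.03 in CB, and 9 of the 10 Arid1a peaks lie below 0 in each cell type.

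The other called peak lay 26.9 kb past the 3′ end of Bcl11a (chr11:24200184-24200684), with 31.4, 43.6, 39.7 and 40.2 CPM in WT CC and 32.9, 33.3, 26.6 and 26.7 CPM in HET CC. It was lower in HET by 0.37 (SE 0.105, adjusted p = 0.0467), with 1 WT library inside the HET range. It ended as a call in 6 of 8 single omissions, all but those of WT CC replicate 1 and HET CC replicate 1 (from -0.46 to -0.31, adjusted p up to 0.159), with total count scaling (0.0757), with thinned libraries (0.162), with CC fitted alone (0.181) and with the replicate number as a block (0.0599). The summed Bcl11a locus had 517.7 to 582.4 CPM in WT CC and 489.8 to 502.4 CPM in HET CC, which did not overlap. Its difference of -0.10 did not pass (SE 0.0382, adjusted p = 0.0899) and became a call with DESeq2 (-0.11, adjusted p = 0.0182). Smarca2, Arid1b, Smarcc1, Smarcd2, Smarcb1 and Bcl7a differed by -0.07 to 0.09 as summed loci in CC, with adjusted p from 0.358 to 0.98. At the Arid1b peak 31.7 kb downstream (chr17:5026514-5027014) the WT CC libraries held 2, 3, 0 and 2 counts and the HET CC libraries 11, 12, 10 and 7, a difference that did not pass (adjusted p = 0.0993).

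Whether the HET effect differed between CC and CB was tested directly. Of the 151 peaks 0 were called by edgeR, against 0.159% of all peaks, with 18 at an unadjusted p below 0.05 and 3 called by DESeq2. Over the whole table DESeq2 called 1352 of 66253 peaks and 316 of 14782 genes. Among loci 0 of 10 were called, against 0.411% of all genes, 1 had an unadjusted p below 0.05 and DESeq2 called 1, Dpf1 (adjusted p = 0.0307). The smallest p was at the Dpf1 start peak, with a difference of 1.17 (SE 0.289, adjusted p = 0.0605).

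A list of 21 other BAF family genes, with 125 peaks, gives the surroundings. From WT CB to WT CC 5 of their loci rose and 7 fell (23.8% and 33.3%), against 31.6% and 31.7% of all genes. In HET 5 rose and 7 fell, against 31.1% and 31.7%. The largest rises were at Bcl11b, the paralog of Bcl11a that marks T cells (log2 change 2.30 in WT and 2.07 in HET), and at Actl6a, an actin-related subunit (0.56 and 0.43). The largest falls in WT were at Ss18l1 (-0.76, with -0.56 in HET) and Actl6b (-0.60, with -0.49 in HET), which encode subunits known from neuronal BAF, as Dpf1 does. In HET the fall at Brd9, a bromodomain subunit, came second (-0.51, with -0.40 in WT). Of the 125 peaks of the 21 genes, 43 rose and 37 fell in WT (34.4% and 29.6%), near the 30.2% and 27.7% of all peaks. In HET 42 rose and 29 fell. Of the 151 peaks of the 10 loci, 26 rose and 62 fell in WT (17.2% and 41.1%), and 29 of these falls were at Arid1b and 16 at Bcl11a. Between HET and WT 0 of the 21 were called in CB, against 0.551% of all genes, and 2 in CC, against 6.66%. In CC Ss18l1 was higher in HET (0.37, adjusted p = 0.015) and Bcl11b lower (-0.41, adjusted p = 0.036).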

How the data were processed

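The authors deposited raw counts per peak for 16 libraries in 1 table of 82188 peaks, each 501 bp wide. FastQC, BWA, deepTools, R 4.2.1 and mm10 are named in the submitters' processing notes; peak calling and counting are not given in the sources used here. Peaks were assigned to genes with the RefSeq table of GRCm38.p6, and 91.0% found a gene within 50 kb. Counts were tested with edgeR 4.0.16 in R 4.3.3 (TMM scaling, filterByExpr, which removed no peak, robust quasi-likelihood fit of 4 groups, Benjamini-Hochberg adjustment over all peaks or genes). A simulation with known changes in HET CC was also run, and its outcome is not given here. Its libraries were independent draws, without the likeness between some replicates that is described below. CPM is TMM-adjusted, and SE comes from the fit. Intervals cover counting error and library spread only.

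Named are, per gene, the peak nearest its start or gene end, the called peak of smallest adjusted p per direction and comparison, and for HET against WT the peak of smallest p; other peaks were picked after values were seen. Members and lists were chosen with earlier results of these data known. Alternatives were total count scaling, DESeq2 1.42.0, 2 filters, thinned libraries, only the compared groups, single omissions, a replicate block, a 10 kb limit and an adjusted p below 0.01. Promoter sequences came from RefSeq; 9 of 10 genes had an entry.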

Additional observations from a re-analysis of the deposited data

Results flagged for a closer look

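In each group of 4 libraries, the highest or lowest value was checked for standing apart from the other 3 (Dixon's test at 95%). Of 164 such groups, 40 over the loci and 124 over 31 named peaks, 12 had a library that stood apart; chance gives about 1 in 20. Summed loci gave 4 of them. Smarca2 had 235.6 CPM in HET CB replicate 2 against 227.2 to 227.3 CPM in the others. Bcl7a had 140.1 CPM in the same library against 144.6 to 145.5 CPM. Bcl11a had 582.4 CPM in WT CC replicate 4 against 517.7 to 526.2 CPM, and 489.8 CPM in HET CC replicate 3 against 500.7 to 502.4 CPM.

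Single peaks gave the other 8. At the Smarca4 start peak HET CC replicate 3 had 70.42 CPM against 51.98 to 55.1 CPM, the library whose omission made the HET difference there a call. The Smarca2 start peak had 59.15 CPM in HET CB replicate 2 against 52.82 to 53.77 CPM, and the Smarca2 peak 143.0 kb downstream had 50.62 CPM in WT CC replicate 4 against 36.96 to 37.49 CPM. At Arid1a the peak near the 3′ end had 3.298 CPM in HET CC replicate 2 against 1.699 to 1.862 CPM, and the peak 46.9 kb downstream of the nearest start had 18.77 CPM in HET CB replicate 4 against 17.36 to 17.43 CPM. The Smarcc1 start peak had 50.07 CPM in WT CB replicate 4 against 47.81 to 48.16 CPM. The Bcl11a peak 28.7 kb past the 3′ end had 5.804 CPM in WT CB replicate 2 against 7.451 to 7.772 CPM. The Dpf1 peak 3.9 kb downstream had 21.07 CPM in HET CB replicate 1 against 23.94 to 24.4 CPM.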

How the results depend on the processing

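Between CB and CC in WT 67 to 97 of the peaks were called under the alternatives other than single omissions (88 as reported), and 75 to 86 without 1 library. Those alternatives kept between 107 and 151 member peaks. In HET thinning every library to the smallest total lowered the count from 90 of 151 to 52 of 146 peaks, all of them among the 90. Calls over all peaks fell with it, from 48359 of 82188 to 31365 of 75808. Single omissions gave 79 to 86 member peaks in HET. Locus counts were 8 to 9 in WT and 9 to 10 in HET over single omissions. HET against WT in CC was less stable. Its 2 called peaks became 0 at an adjusted p below 0.01, 1 with a 10 kb limit, 1 with total count scaling, 10 with DESeq2 (2 higher, 8 lower), 1 with thinned libraries, 0 with the CC libraries fitted alone, and 0 to 5 over single omissions. Calls over all peaks moved too, from 1694 to 186 of 75643 with CC fitted alone and to between 338 and 2991 over single omissions. The 2 called loci of HET against WT in CC became 1 at an adjusted p below 0.01, with thinned libraries and with CC fitted alone, 3 with DESeq2 (1 higher, 2 lower), and 1 to 2 over single omissions. In CB, fitting the CB libraries alone gave 2 peaks and 1 locus in place of 0, and single omissions gave 0 peaks and 0 loci. Fitting CB alone also raised the calls over all peaks from 106 to 1076 of 82072, and over all genes from 83 to 482 of 15067. For the difference between the CC and CB effects, total count scaling gave 1 peak, peaks of at least 5 CPM 1 peak, DESeq2 3 peaks and 1 locus, and single omissions 0 to 1 peaks and 0 to 1 loci. Over all peaks, DESeq2 called 647 in place of 106 in CB and 4650 in place of 1694 in CC. For the difference between the effects it called 1352 in place of 131. The cause of these shifts was not tested. Of 1893 single values under alternatives, 0 reversed in sign while called, 57 lost a call and 13 gained one. These came from 122 single values, each under several alternatives. Of the 122, only 57 were called as reported, and 14 of those lost the call under some alternative.

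Same-numbered libraries were weakly alike across CB and CC. Their deviations correlated at 0.041 to 0.045 between WT CB and WT CC and at 0.032 to 0.073 between HET CB and HET CC. The values were -0.14 to -0.113 between WT CB and HET CB and -0.024 to 0.009 between WT CC and HET CC. Libraries correlated best with their own number in 4 of 4 WT and 3 of 4 HET cases across CB and CC. The numbers may thus pair CB with CC within a genotype, and the main fit did not use such a pairing. Within WT CB, HET CB and HET CC, replicates 1 and 3, and 2 and 4, were more alike than other pairs. In WT CB the chi-square of their count differences per degree of freedom was 1.92 and 2.255. Other WT CB pairs had 3.257 to 3.488, and all WT CC pairs 1.979 to 2.139. The main fit did not model this, and its source was not tested. With the replicate number as a block, 80 peaks were called between CC and CB in WT and 79 in HET, 1 between HET and WT in CC and 0 in CB. Depth limits CC most: with 26 counts at the median member peak of WT CC, changes of weak peaks there were not always detectable.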
